A study of Homo sapiens with 6 samples.

Results

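The genes described here encode the kinetochore, the centromere and the spindle assembly checkpoint. Of 48 symbols listed for these structures, 47 were rows of the deposited count table, out of 54261 symbols in all, and all 47 passed the filter on low counts. KNL1 had no row of its own; its older symbol CASC5, paired with it by RefSeq, did, and is described beside the members without being counted. RNA sequencing measured expression in 786-O, a long-used human cell line from a clear cell renal carcinoma. The control group was 3 libraries of cells given control guide RNA, PHF8 wild type, and the other group was 3 libraries of cells given guide RNA against PHF8, both by CRISPR-Cas9; the labels call the latter PHF8 knockout. The PHF8 protein takes repressive methyl marks off histones. All cells were grown in RPMI-1640 with 10% fetal bovine serum at 37 °C and 5% CO2. The sources do not state if the PHF8-sgRNA cells were cloned or pooled, which guides were used, or whether replicate libraries are separate cultures. The p-values therefore measure only how far these libraries spread, and that spread may be technical.

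The kinetochore is the protein assembly that joins a chromosome to spindle microtubules. Its foundation is chromatin holding CENP-A, a histone H3 variant that HJURP and the Mis18 proteins load at centromeres, on which the inner kinetochore (the constitutive centromere-associated network) is built. The outer kinetochore, made of KNL1 with the MIS12 and NDC80 complexes, binds microtubules. The spindle checkpoint delays anaphase until every chromosome is attached, and the chromosomal passenger complex releases wrong attachments. Many of these genes are transcribed mainly in G2 and mitosis, and dividing tumour lines express them at readily measured levels.

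Libraries held 21533615 to 29095133 counted reads. PHF8 itself was at 36.6, 35.1 and 32.9 CPM (counts scaled to library size with TMM factors) in control and 10.8, 6.74 and 12.8 CPM in knockout libraries 1 to 3 (log2 fold change -1.78, SE 0.21; edgeR adjusted p = 1.19e-04). Of 10 renal and epithelial markers 3 rose (30%), 1 fell (10%) and 6 did not pass, against 28.9% higher and 30.8% lower among all tested genes. The renal transcription factor gene PAX8 rose from between 211 and 231 CPM to between 314 and 392 CPM. PAX2, of the same family, fell from between 5.87 and 7.20 CPM to between 2.58 and 3.46 CPM. Of 10 markers of blood, endothelial, liver and stromal cells, PTPRC, CD3E and CDH5 had 0 reads, and the highest value of any was 1.44 CPM; summed, they lay between 2.15 and 2.47 CPM in control and between 1.37 and 1.57 CPM in knockout libraries. Control library 1 stood apart for many of the genes below: in 11 of the 47 it was under 75% of the mean of the other control libraries, and 9 of these 11 were among the genes lower in knockout cells. Knockout library 2 also stood apart: it was the highest knockout library in 25 members and the lowest in 15, and its median log2 ratio to control over the members was -0.20, against -0.49 and -0.42 in knockout libraries 1 and 3. Without control library 1, 21 members were lower and 4 higher, and without knockout library 2, 24 were lower and 4 higher. Over all tested genes, 4134 were lower and 4106 higher of 14725 without control library 1. Without knockout library 2 these were 4895 and 4647 of 14680.

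Differences of kinetochore and checkpoint transcripts ranged from a log2 fold change of -3.97 (CENPV) to 0.61 (MAD1L1). Of the 47 members, 22 (46.8%) were lower and 3 (6.38%) higher in knockout cells at an edgeR adjusted p under 0.05, and 22 did not pass the test. Among all 14398 tested genes 30.8% were lower and 28.9% higher, 59.7% in either direction; with library totals as the only scaling 5441 genes were lower and 3153 higher, against 4435 and 4158. With a 2-fold difference also required, 16 members (34.0%) were lower, against 14.2% of all genes, and 0 were higher, against 9.2%. With the offset for transcript length and GC content described below, these counts were 10 lower and 1 higher, against 7.92% and 7.68% of all genes. The median log2 fold change was -0.32 over the members and -0.01 over all tested genes. The groups did not overlap in 31 members (66.0%), a share close to the 66.8% of all genes. Summed over members, the level lay between 2837 and 3149 CPM in control libraries and between 2210 and 2376 CPM in knockout libraries. In such bulk RNA, fewer cells in mitosis and less RNA per mitotic cell cannot be told apart.

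**Figure D1:**
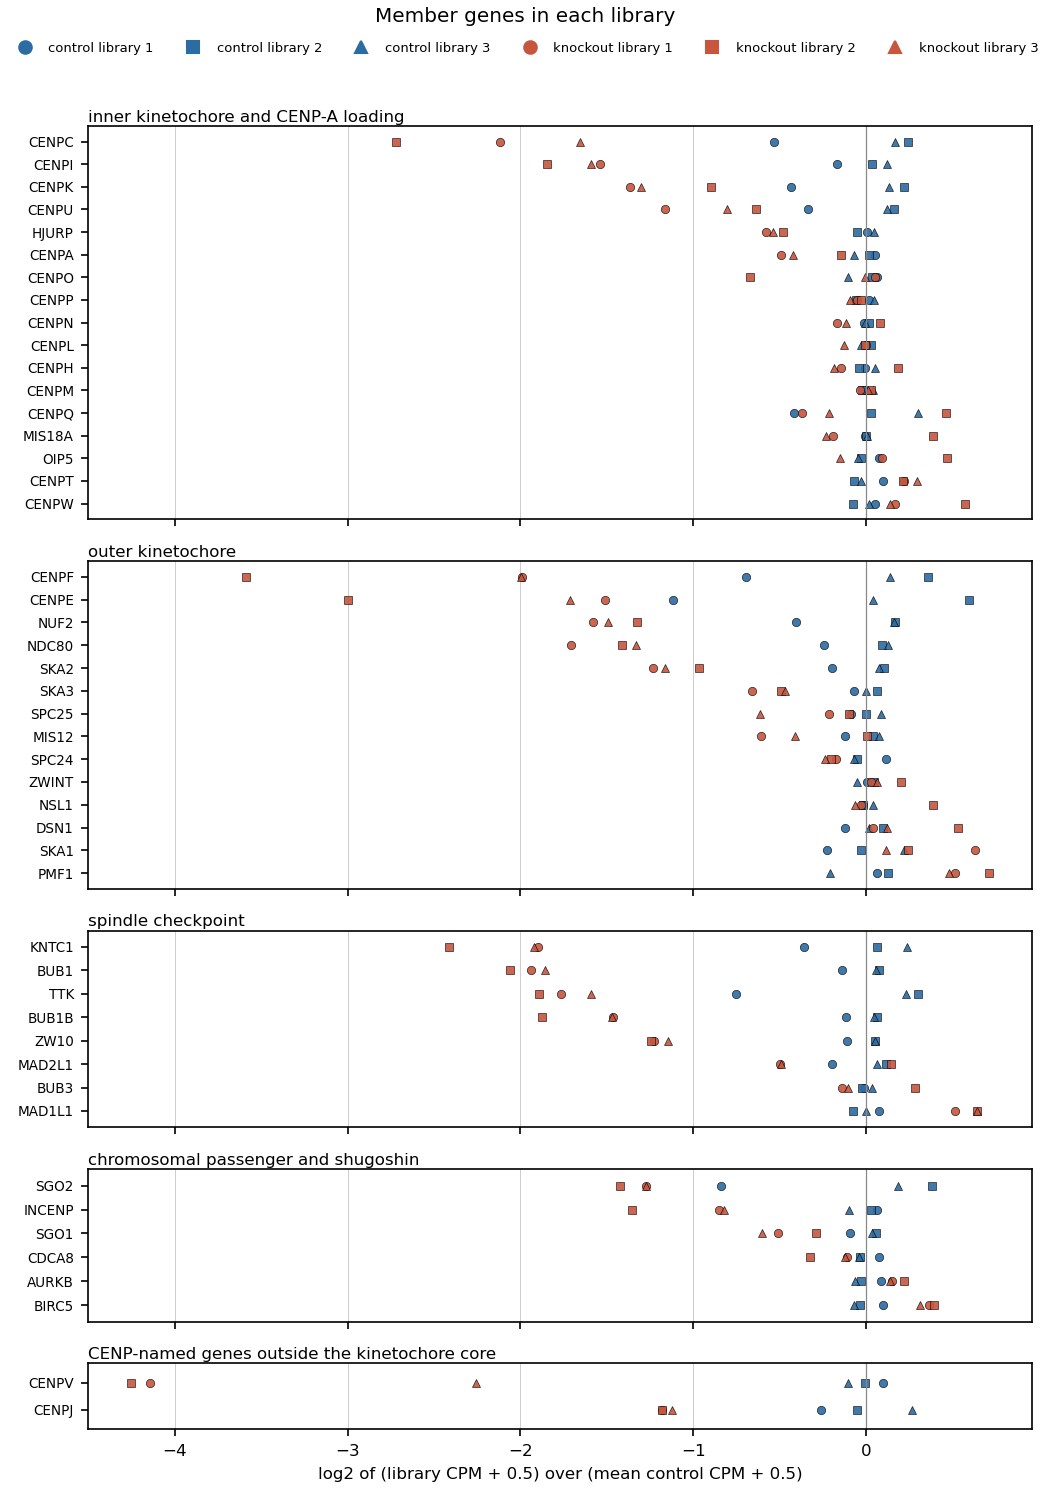
Each row is a member gene and each symbol a library (blue control, red knockout), placed on the x axis at the log2 ratio of its CPM to the mean of the control libraries, with 0.5 CPM added to both; panels are roles. The red symbols form a long tail to the left for CENPC, CENPF, KNTC1, BUB1 and CENPV and sit around 0 for CENPL, CENPM, ZWINT and BUB3.

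Promoter elements of cell cycle genes were found among members that fell and among the others; the difference between these was not tested. Many G2 and mitosis genes carry a CHR (cell cycle genes homology region), bound by the MuvB proteins of the DREAM complex, and CCAAT boxes, bound by NF-Y. RefSeq (GRCh38.p14) promoter windows, from 250 bases before to 50 bases after a gene's start, were held for 38 of the 47 members; CENPH, CENPL, CENPM, MIS18A, BUB3, TTK, KNTC1, BIRC5 and CENPJ had no entry. A CHR, searched as TTTGAA or TTCGAA on both strands, was in 21 of the 38 members (55.3%) and in 19.5% of the 27305 genes with a window. It was in 12 of 19 members lower in knockout cells and in 9 of the other 19. A CCAAT box, on either strand, was in 25 of the 38 (65.8%) and in 39.7% of all genes, in 12 of the 19 lower members and in 13 of the other 19. Letters alone do not show that a factor binds. The 100 bases before the start are given for genes of both kinds, BUB1 and CENPC (lower) and ZWINT and OIP5 (not called), 5′ to 3′ on the gene's strand, with each CHR and CCAAT match in capitals. All are on the minus strand, at chr2:110678064-110678163, chr4:67545504-67545603, chr10:56361274-56361373 and chr15:41332592-41332691.
BUB1: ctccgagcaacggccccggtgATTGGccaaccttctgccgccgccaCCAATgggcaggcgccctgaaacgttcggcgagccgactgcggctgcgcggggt
CENPC: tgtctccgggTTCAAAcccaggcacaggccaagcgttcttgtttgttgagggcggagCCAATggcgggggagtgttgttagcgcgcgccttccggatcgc
ZWINT: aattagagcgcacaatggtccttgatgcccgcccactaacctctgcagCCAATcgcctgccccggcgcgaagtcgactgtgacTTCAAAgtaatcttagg
OIP5: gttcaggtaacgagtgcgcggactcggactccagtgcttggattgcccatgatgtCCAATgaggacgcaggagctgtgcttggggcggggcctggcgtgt
BUB1 shows a CCAAT box in each orientation, starting 79 and 54 bases before the start, and its CHR and that of OIP5 lie outside the bases printed. CENPC and ZWINT each show a CHR, 90 and 17 bases before the start, and a CCAAT box.

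In the inner kinetochore and the CENP-A loading factors, 6 of 17 genes (35.3%, near the 30.8% of all tested genes) fell, 0 rose and 11 did not pass (median log2 fold change -0.06). With the length and GC offset, 8 were lower and 3 higher, against 28.4% and 30.7% of all tested genes with it. CENPI, a subunit of the CENP-H/I/K module (chromosome X, 101098188 to 101166126, GRCh38), had the smallest p. It was at 50.5, 58.2 and 62.0 CPM in control libraries 1, 2 and 3 and at 19.3, 15.5 and 18.6 CPM in knockout libraries 1, 2 and 3. Every knockout library was below every control library, a 3.20-fold fall (log2 fold change -1.68, SE 0.13; edgeR adjusted p = 2.21e-05). CENPC, the scaffold that links CENP-A nucleosomes to the outer kinetochore (chromosome 4, 67468762 to 67545503), was low in all libraries, at 6.76, 11.9 and 11.3 CPM in control and 1.92, 1.09 and 2.83 CPM in knockout libraries. Its log2 fold change of -2.35 (SE 0.33; edgeR adjusted p = 3.30e-04) was the largest fall of the inner kinetochore genes and rested on 27 to 77 reads per knockout library. HJURP, the CENP-A chaperone (chromosome 2, 233833416 to 233854566), moved less but with little spread, from 188, 180 and 193 CPM to 125, 134 and 129 CPM (log2 fold change -0.53, SE 0.09; edgeR adjusted p = 6.67e-04). CENPK and CENPU, of the CENP-H/I/K and CENP-O modules, fell 2.36-fold and 1.84-fold, with control libraries between 11.0 and 17.7 CPM for CENPK and between 20.4 and 29.0 CPM for CENPU.

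CENPA itself was at 60.7, 59.3 and 55.9 CPM in control and 41.6, 53.0 and 43.6 CPM in knockout libraries. The difference of -0.35 on the log2 scale (SE 0.12; edgeR adjusted p = 0.028) was small, and the call was lost without any 1 of control libraries 1, 2 and 3 or knockout libraries 1 and 3 (adjusted p = 0.070 to 0.11; 6.36e-05 to 0.11 over all alternatives). The other loading factors did not pass. MIS18A, a Mis18 subunit, was at 32.2, 32.3 and 32.4 CPM in control and 28.2, 42.5 and 27.4 CPM in knockout libraries, with knockout library 2 above and the others below all controls. OIP5 (Mis18-beta) had 21.6, 20.1 and 19.9 CPM in control and 21.9, 28.6 and 18.5 CPM in knockout libraries. In GENCODE, 92.5% of OIP5's exon bases overlap genes on the other strand, among them NUSAP1 and OIP5-AS1, and the strand setting of the counting is not given in the sources used here, so its value is uncertain.

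Most remaining subunits of the network lay at their control level. CENPM, a subunit of the CENP-H/I/K module, had 42.1, 41.8 and 43.7 CPM in control and 41.4, 43.4 and 42.9 CPM in knockout libraries (log2 fold change 0.0023, SE 0.09). CENPL had 24.7, 25.2 and 24.2 CPM against 24.7, 24.7 and 22.6 CPM, and its partner CENPN, which reads the CENP-A nucleosome, 88.8, 90.3 and 89.0 CPM against 79.5, 94.7 and 82.5 CPM. CENPH, which forms a module with CENPI, had 27.4, 26.7 and 28.5 CPM against 24.9, 31.4 and 24.2 CPM. The groups overlapped in all of these genes.

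Of the CENP-O module, CENPO stood at 105, 103 and 93.9 CPM in control and 104, 63.1 and 100.3 CPM in knockout libraries, where knockout library 2 alone was low. CENPP had 6.14, 5.80 and 6.28 CPM against 5.83, 5.93 and 5.66 CPM, and CENPQ 7.24, 10.0 and 12.3 CPM against 7.50, 13.8 and 8.42 CPM. Exons of CENPO and CENPP overlap opposite-strand genes over 31.6% and 43.2% of their bases. CENPT and CENPW, the histone-fold pair that offers a second route to the NDC80 complex, lay on the higher side without passing the test. CENPT had 37.7, 33.5 and 34.5 CPM in control and 41.1, 40.9 and 43.4 CPM in knockout libraries (log2 fold change 0.25, SE 0.10; edgeR adjusted p = 0.061, ranging over alternatives from 0.025 to 0.53). CENPW had 45.6, 41.8 and 44.5 CPM against 49.4, 65.7 and 48.4 CPM (log2 fold change 0.31, SE 0.13; edgeR adjusted p = 0.072). The groups did not overlap in either gene, which was so in 66.8% of all tested genes. With the length and GC offset CENPT turned to -0.17 without passing (edgeR adjusted p = 0.062), and CENPW passed as higher (0.46).

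In the outer kinetochore 6 of 14 genes fell (42.9%, against 30.8% of all tested genes), 1 rose (7.14%, against 28.9%) and 7 did not pass. The median log2 fold change was -0.33. With the length and GC offset, 5 were lower and 2 higher, against 28.4% and 30.7% of all tested genes with it. NDC80, the microtubule-binding subunit that names its complex (chromosome 18, 2571557 to 2616635), was at 60.6, 76.7 and 78.4 CPM in control and 21.7, 26.7 and 28.3 CPM in knockout libraries, a 2.81-fold fall (log2 fold change -1.49, SE 0.14; edgeR adjusted p = 5.03e-05). Its direct partner NUF2 (chromosome 1, 163266576 to 163355764) had 31.9, 47.7 and 47.5 CPM in control and 13.9, 16.6 and 14.7 CPM in knockout libraries (log2 fold change -1.49, SE 0.17). The other subunits of the complex, SPC24 and SPC25, which anchor it to the inner kinetochore, did not pass. SPC24 had 55.4, 49.2 and 48.6 CPM in control and 45.2, 44.4 and 43.3 CPM in knockout libraries, and SPC25 3.82, 4.08 and 4.37 CPM against 3.46, 3.79 and 2.50 CPM (edgeR adjusted p = 0.10 and 0.17). Knockout libraries were below control libraries in both, by margins of a few CPM or less.

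The MIS12 complex, which joins the inner kinetochore to NDC80 and KNL1, contained no gene that fell. MIS12 had 30.5, 34.2 and 35.1 CPM in control and 21.6, 33.4 and 24.8 CPM in knockout libraries, and knockout library 2 lay among the controls. Without that library the difference passed (log2 fold change -0.51; edgeR adjusted p = 0.0026), as it did with library totals as the only scaling (-0.49; adjusted p = 0.031), with a range of 0.0026 to 0.91 over all alternatives. DSN1 had 47.3, 55.2 and 52.2 CPM against 53.1, 74.8 and 56.2 CPM, and NSL1 28.8, 28.9 and 30.0 CPM against 28.6, 38.4 and 27.9 CPM; knockout library 2 was the highest for both. PMF1 was the outer kinetochore gene that rose, from 10.4, 10.8 and 8.52 CPM to 14.4, 16.5 and 14.0 CPM (log2 fold change 0.60, SE 0.14; edgeR adjusted p = 0.0061). The annotation holds a joined PMF1-BGLAP gene that covers 23.3% of PMF1's exon bases on the same strand, and how such reads were counted is not known. ZWINT, which binds KNL1 and recruits the RZZ complex (ROD, ZW10 and Zwilch), was one of the most abundant members and had 145, 149 and 139 CPM in control and 147, 166 and 151 CPM in knockout libraries. CASC5, the row that stands for KNL1, fell from 22.3, 45.8 and 44.8 CPM to 11.7, 6.70 and 14.6 CPM (log2 fold change -1.77, SE 0.33; edgeR adjusted p = 0.0014).

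The SKA complex, which couples kinetochores to shrinking microtubules, was mixed. SKA2 (chromosome 17, 59109857 to 59155260) fell from 93.0, 115 and 112 CPM to 45.0, 54.4 and 47.3 CPM (log2 fold change -1.12, SE 0.12; edgeR adjusted p = 7.82e-05). SKA3 fell from 25.7, 28.2 and 27.0 CPM to 16.9, 19.0 and 19.3 CPM (log2 fold change -0.55, SE 0.11; edgeR adjusted p = 0.0025). SKA1 had 20 to 37 reads in control and 34 to 48 reads in knockout libraries, or 0.88, 1.08 and 1.38 CPM against 2.00, 1.41 and 1.25 CPM, and its groups overlapped.

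The largest fold falls among outer kinetochore members were those of CENPE and CENPF, whose libraries also spread widely within groups. CENPE encodes a kinesin that carries chromosomes toward the spindle equator. It was at 18.9, 63.1 and 42.8 CPM in control and 14.3, 4.76 and 12.3 CPM in knockout libraries, and control library 1 lay close to the knockout values (log2 fold change -1.99, SE 0.46; edgeR adjusted p = 0.0050). CENPF, a fibrous corona protein, was at 85.2, 178 and 152 CPM in control and 34.4, 11.1 and 34.3 CPM in knockout libraries (log2 fold change -2.38, SE 0.41; edgeR adjusted p = 9.92e-04). Control library 1 was the lowest control and knockout library 2 the lowest knockout library in both genes. Without control library 1 the log2 fold changes were -2.32 for CENPE and -2.61 for CENPF, and without knockout library 2 they were -1.64 and -2.01.

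Spindle checkpoint genes held several of the strongest falls. Of 8 genes 5 fell (62.5%), each by more than 2-fold, 1 rose and 2 did not pass (median log2 fold change -1.41). Among all tested genes 30.8% were lower, 14.2% past 2-fold, and 28.9% were higher. With the length and GC offset, 5 checkpoint genes were lower and 2 higher, against 28.4% and 30.7% of all tested genes with it. BUB1, the kinase that marks centromeric chromatin and docks other checkpoint proteins (chromosome 2, 110637528 to 110678063), was at 177, 205 and 203 CPM in control and 50.7, 46.4 and 53.5 CPM in knockout libraries. With an edgeR adjusted p of 4.79e-06 (log2 fold change -1.96, SE 0.11) it had the smallest p of all members. BUB1B, which encodes BubR1 of the mitotic checkpoint complex (chromosome 15, 40161023 to 40221123), went from 128, 145 and 143 CPM to 50.1, 37.5 and 49.8 CPM (log2 fold change -1.60, SE 0.13; edgeR adjusted p = 2.63e-05). BUB3, the small adaptor that BUB1 and BubR1 both bind, had 182, 180 and 188 CPM in control and 167, 223 and 171 CPM in knockout libraries (log2 fold change 0.03, SE 0.12).

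ZW10 and KNTC1 encode subunits of the RZZ complex, KNTC1 being ROD. ZW10 (chromosome 11, 113733187 to 113773735) fell from 35.7, 40.1 and 40.1 CPM to 16.2, 16.0 and 17.2 CPM (log2 fold change -1.23, SE 0.11; edgeR adjusted p = 3.60e-05). KNTC1 fell from 30.5, 41.1 and 46.4 CPM to 10.2, 6.98 and 10.0 CPM (log2 fold change -2.12, SE 0.20). TTK, the Mps1 kinase that starts checkpoint signalling, had 29.3, 61.4 and 58.4 CPM in control and 14.3, 13.0 and 16.1 CPM in knockout libraries (log2 fold change -1.78, SE 0.25), with control library 1 again the lowest control. MAD1L1 was the checkpoint gene that rose, from 42.8, 38.6 and 40.6 CPM to 58.3, 63.6 and 63.7 CPM (log2 fold change 0.61, SE 0.10; edgeR adjusted p = 7.01e-04), though another annotated gene shares 43.2% of its exon bases on the same strand. Its partner MAD2L1, the protein that MAD1 converts to its active form, had 106, 132 and 127 CPM in control and 86.0, 135 and 86.3 CPM in knockout libraries. Knockout library 2 lay above every control library, and without it the MAD2L1 difference passed (log2 fold change -0.49; edgeR adjusted p = 0.0015, and 0.0015 to 0.57 over all alternatives).

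Among the chromosomal passenger and shugoshin genes 3 of 6 fell (50%, against 30.8% of all tested genes), 1 rose (16.7%, against 28.9%) and 2 did not pass. The median log2 fold change was -0.33. With the length and GC offset, 4 were lower, AURKB and CDCA8 among them, and 0 higher, against 28.4% and 30.7% of all tested genes. INCENP, the scaffold of the passenger complex (chromosome 11, 62123998 to 62153169), was at 103, 100.04 and 91.6 CPM in control and 54.1, 38.0 and 55.2 CPM in knockout libraries, a fall just short of 2-fold (SE of the log2 fold change 0.15; edgeR adjusted p = 4.05e-04). The kinase gene AURKB, which INCENP activates, had 96.5, 89.0 and 86.8 CPM against 101, 106 and 99.9 CPM and did not pass (log2 fold change 0.17, SE 0.09; edgeR adjusted p = 0.13). CDCA8 (borealin) had 144, 133 and 133 CPM against 127, 109 and 126 CPM (log2 fold change -0.18, SE 0.10), a difference that passed with library totals as the only scaling (-0.35; edgeR adjusted p = 0.010, and 2.42e-04 to 0.36 over all alternatives). BIRC5 (survivin), the most abundant member per transcript length, rose from 286, 261 and 255 CPM to 344, 351 and 331 CPM (log2 fold change 0.36, SE 0.09; edgeR adjusted p = 0.0064). That call was lost with library totals as the only scaling (0.19; adjusted p = 0.095, and 0.0018 to 0.28 over all alternatives).

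Shugoshins protect centromeric cohesin. SGO2 was at 21.0, 49.6 and 43.2 CPM in control and 15.4, 13.8 and 15.4 CPM in knockout libraries (log2 fold change -1.35, SE 0.27; edgeR adjusted p = 0.0022). SGO1 was at 21.4, 23.7 and 23.4 CPM in control and 15.9, 18.6 and 14.9 CPM in knockout libraries (log2 fold change -0.47, SE 0.13; edgeR adjusted p = 0.010). Leaving out control library 2 or 3 ended that call (adjusted p = 0.059 and 0.053, and 0.0015 to 0.91 over all alternatives). Control library 1 was the lowest control in both genes, far below the others in SGO2 only.

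CENPJ and CENPV carry the CENP name but lie outside the kinetochore core. CENPJ, a centriole assembly protein (chromosome 13, 24882279 to 24922889), fell from 9.43, 11.0 and 13.8 CPM to 4.75, 4.76 and 4.96 CPM (log2 fold change -1.24, SE 0.17; edgeR adjusted p = 2.90e-04). CENPV, a microtubule-binding protein of the centromere and midbody (chromosome 17, 16342534 to 16353656), had 240, 244 and 243 reads in control and 2, 1 and 45 reads in knockout libraries 1, 2 and 3. Its log2 fold change of -3.97 (SE 0.69; edgeR adjusted p = 0.0010) was the largest of the members, and knockout library 3 set its size. Libraries 1 and 2 kept 0.851% (95% exact Poisson interval 0.103% to 3.07%) and 0.412% (0.0104% to 2.30%) of the control mean, and library 3 kept 16.9% (12.3% to 22.6%); the intervals cover counting error only. Without library 3 the log2 fold change was -7.20. No other member differed so much among knockout libraries: the coefficient of variation was 155% for CENPV and 50.6% for CENPF, the next highest.

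Levels per transcript length give a rough comparison of the subunits of a complex, because each depends on the transcript whose length is taken. In CPM per kb of transcript (GENCODE canonical length), BIRC5, ZWINT and AURKB were the 3 most abundant members in both groups, at 104, 77.8 and 73.0 in control and 133, 83.3 and 82.2 in knockout cells. BUB1 ranked 7 of 47 in control and 22 in knockout cells, at 51.9 and 13.3 CPM per kb. SKA1 and CENPP were the lowest in control cells, at 0.39 and 0.73 CPM per kb. A ratio of subunits was computed for 5 pairs, chosen after their values were seen. The size of a ratio, and so its side of 1, depends on the lengths taken, while its fold difference between groups does not. BUB1 and BUB3, for example, had control means of 195 and 183 CPM before division by 3762 and 7703 bases. NDC80 to SPC24 was 1.18, 1.68 and 1.74 in control and 0.52, 0.65 and 0.70 in knockout libraries: above 1 in every control library and below 1 in every knockout library. INCENP to AURKB was 0.32, 0.34 and 0.32 in control and 0.16, 0.11 and 0.17 in knockout libraries. BUB1 to BUB3 was 2.00, 2.33 and 2.22 in control and 0.62, 0.43 and 0.64 in knockout libraries. NUF2 to SPC25 was 7.04 ± 1.18 in control and 3.25 ± 0.68 in knockout libraries, and CENPI to CENPH 0.50 ± 0.05 and 0.16 ± 0.04 (mean ± SD, n = 3 each). The groups did not overlap in any of the 5 ratios, which the choice of the pairs fixed, so no test is given. With the offset for length and GC described below, the log2 ratios differed between the groups by -0.63 (NDC80 to SPC24) to -2.43 (BUB1 to BUB3). These values come from the same chosen pairs, so their shared sign adds no support. In each pair the first gene has the longer coding sequence, and BUB3 itself was at 0.91 with the offset.

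**Figure D2:**
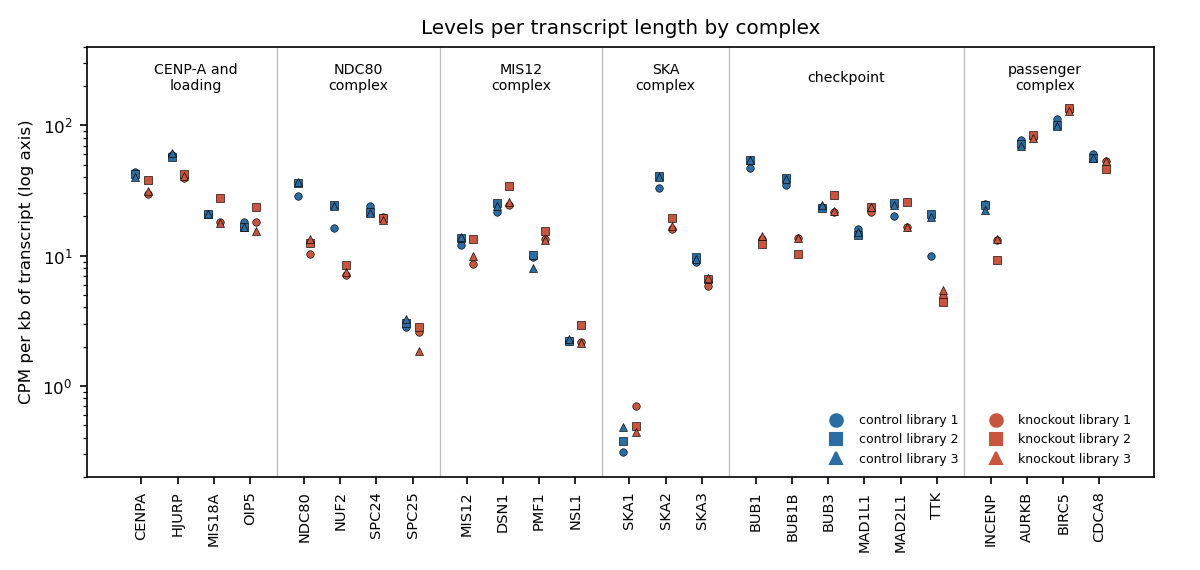
Level of each subunit in CPM per kb of transcript (log axis), with 1 symbol per library, control in blue and knockout in red, grouped by complex. Mean NDC80 lies above SPC24 in control (33.8 against 22.3) and below it in knockout cells (12.0 against 19.3), while BUB3 differs little between the groups (23.8 and 24.2).

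The members that fell were mostly those with long coding sequences. Among the 23 members with coding sequences of 1032 to 9342 bases, 18 were lower and 1 higher, with a median log2 fold change of -1.24. Among the 24 with 264 to 1017 bases, 4 were lower and 2 higher, with a median of -0.05. With the length and GC offset the longer members had 16 lower and 1 higher and the shorter 8 lower and 6 higher. In all tested genes on the same sides of that length the medians were -0.22 (8218 genes) and 0.23 (3793 genes). How many of those genes passed was not counted, so the members' counts have no share of like length beside them. Over tested genes of any length 30.8% were lower and 28.9% higher, and 28.4% and 30.7% with the offset. Over the 47 members Spearman's rho between coding length and log2 fold change was -0.59, and with transcript GC content 0.47; over 12011 tested genes the values were -0.32 and 0.50. With the offset the members' values were -0.52 and 0.11. Genes are not independent replicates, and these are descriptions. The short gene CENPV and SKA2 (coding lengths 816 and 363 bases) fell, and MAD1L1 (2154 bases) rose.

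Libraries of 1 group also differed along these properties. The log2 ratio of control library 1 to the mean of control libraries 2 and 3 had a rho of 0.85 with GC content over the members (0.66 over the 12011 genes) and -0.45 with coding length. The 11 members in which control library 1 was low, CENPC, CENPK, CENPQ, CENPU, NUF2, SKA1, CENPE, CENPF, TTK, KNTC1 and SGO2, had GC contents of 32.8% to 43.2%. The part of these trends in the difference between groups was not tested.

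**Figure D3:**
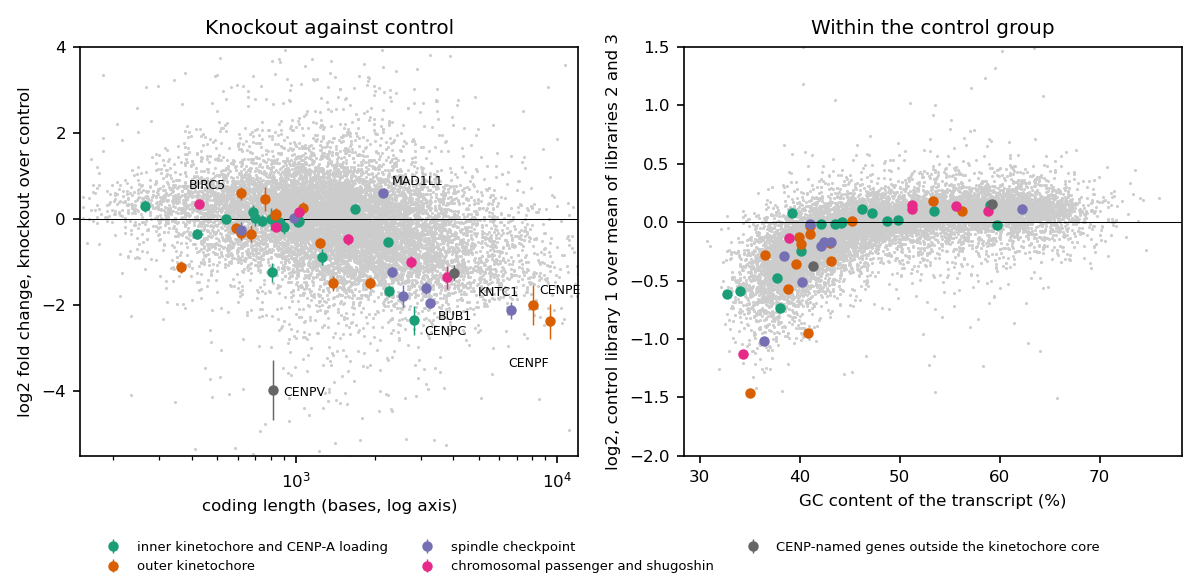
Left, log2 fold change of the members (colour by role, bars SE) against coding length on a log axis, over all tested genes in grey (values beyond the axes not drawn). Right, log2 ratio of control library 1 to the mean of control libraries 2 and 3 against transcript GC content. Members of 1032 bases or more hold most of the falls, and members of low GC content are low in control library 1.

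With an offset that removes smooth trends of transcript length and GC content from each library, 24 members were lower and 7 higher, against 28.4% and 30.7% of all genes. Each trend was taken relative to the average over both groups, so any difference between the groups that tracks these properties is taken out too. Of the 22 members lower without the offset 19 were lower with it too, keeping 38.0% to 173% of their log2 fold change (median 67.9%). Among them BUB1 was at -1.52, CENPF at -1.44, CENPC at -1.40, KNTC1 and BUB1B at -1.24, NDC80 and NUF2 at -1.21 and CENPV at -4.59. The calls of CENPE (-0.84), SKA3 (-0.20) and SGO1 (-0.01) were lost, as were all 3 rises: MAD1L1 (0.17), BIRC5 (0.09) and PMF1 (0.02). CENPM (-0.64), SPC24 (-0.58), CDCA8 (-0.48), AURKB (-0.38) and CENPO (-0.29) passed as lower with the offset. NSL1 (1.16), BUB3 (0.91), MAD2L1 (0.52), CENPW (0.46), CENPQ (0.36), DSN1 (0.35) and CENPN (0.31) passed as higher with it. The canonical transcripts of NSL1, BUB3 and MAD2L1 are 13115, 7703 and 5227 bases long for coding lengths of 843, 984 and 615 bases, so their offset depends on which transcript is taken.

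**Figure D4:**
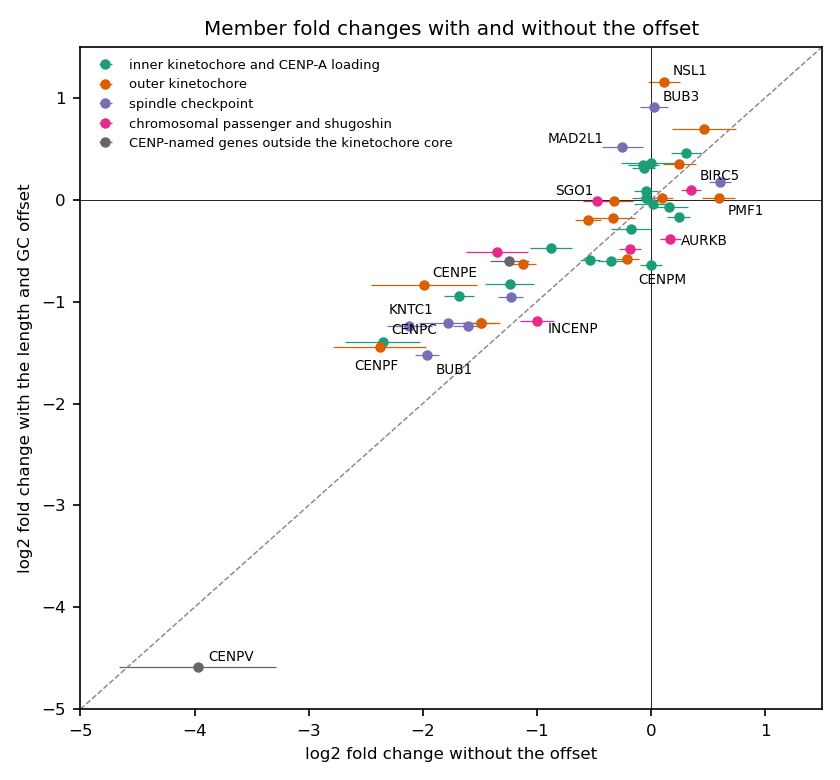
Log2 fold change of each member without (x axis, bars SE) and with (y axis) the offset for transcript length and GC content; the dashed line marks equal values. Most members that fell lie above the line and below 0, BUB1 at -1.96 and -1.52 for example, and NSL1, BUB3 and MAD2L1 lie on the higher side with the offset.

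The counts of further lists stand against 30.8% lower and 28.9% higher among all tested genes. These counts and values are without the length and GC offset. Among the members, that offset ended all 3 rises and gave 7 others. In 19 members lower both ways it left a median 67.9% of the log2 fold change. Values in these lists may depend on it too. In a list of kinetochore and checkpoint partners, 32 of 35 symbols were found, of which 17 fell (53.1%), 4 rose (12.5%) and 11 did not pass (median log2 fold change -0.42). The 4 with the smallest p all fell: NUP107, a nucleoporin that also sits at kinetochores (log2 fold change -1.48), the phosphatase regulatory subunit genes PPP2R5E (-1.28) and PPP2R5C (-1.20), and CLASP2, which controls microtubule growth at kinetochores (-1.50). Among 24 transcriptional regulators of mitotic genes, 11 fell (45.8%) and 5 rose (20.8%). E2F4, a repressor within the DREAM complex, rose from 78.9, 72.5 and 70.6 CPM to 156, 172 and 177 CPM (log2 fold change 1.19, SE 0.10; edgeR adjusted p = 2.63e-05). LIN54, the DREAM subunit that contacts the CHR, fell from 19.2, 25.7 and 25.4 CPM to 7.58, 7.67 and 7.98 CPM (log2 fold change -1.60, SE 0.15), and TFDP2 and RB1 had log2 fold changes of -1.18 and -1.48. FOXM1, an activator of mitotic genes chosen after its values were seen, fell from 204, 193 and 186 CPM to 110, 81.8 and 119 CPM (log2 fold change -0.91, SE 0.14, edgeR adjusted p = 4.84e-04). MYBL2, of the same list, had 279, 266 and 257 CPM in control and 298, 231 and 296 CPM in knockout libraries. It did not pass (log2 fold change 0.04, SE 0.11, edgeR adjusted p = 0.77). Of 18 cell cycle phase genes 11 fell (61.1%) and 2 rose (11.1%). The cyclin gene CCNA2 had a log2 fold change of -1.29, TOP2A -1.94, CDK1 -1.13 and the cyclin gene CCNB1 -0.50. The summed level of the phase genes was 4574 to 4835 CPM in control and 3866 to 4171 CPM in knockout libraries; the part of cell cycle distribution in the member differences was not tested.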

How the data were processed

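RNA from 3 control and 3 PHF8-knockout libraries of 786-O cells was sequenced. Per the labels' series text, the authors filtered reads, mapped them to GRCh38 with HISAT2 (version 2.0.4 per the submitters' processing notes) and made the deposited raw read counts per gene with HTSeq. The sources used here do not give the HTSeq version, its strand setting or the annotation. Counts of libraries of a group differed by more than sampling noise (chi-square per degree of freedom 2.95 to 68.1), so each was 1 replicate.

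Knockout was compared with control on counts by edgeR's quasi-likelihood test (version 4.0.16, R 4.3.3), with TMM factors, filterByExpr (14398 of 54261 symbols kept), prior count 0.125 and Benjamini-Hochberg adjustment over all tested genes. SE is the log2 fold change over the root of F. On counts simulated for this comparison (14175 genes tested), recovery was 38.8% for the 67 genes set to 1.5-fold, 82.1% for 67 at 2-fold and 100% for 66 at 4-fold, and 12 of 159 calls were false. Only these genes were changed, all drawn from better-covered genes, and no length or GC trend was simulated. In the data 59.7% of genes were called, so these rates need not hold there. Alternatives were DESeq2 1.42.0, other scaling factors, other filters, the replicate number as a block, each library left out, and the length and GC offset (lowess span 0.3; 92.4% of tested genes had both values). Lengths, coordinates and overlaps come from GENCODE v44 (GRCh38), matched by symbol.

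Named genes were all members. Values per library are given for the 3 smallest p of each role, for genes not called or higher and for calls an alternative changed. Up to 4 with the smallest p were named from each other list. FOXM1 and MYBL2 were added from the regulators after their values were seen. Members and lists were chosen with earlier results of these data known.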

Additional observations from a re-analysis of the deposited data

How the results depend on the processing

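Over 15 alternatives, 17 of the 22 members lower in knockout cells passed as lower in every one, and 9 were also past 2-fold in every one. Leaving out 1 library gave 20 to 24 lower members, 3 or 4 higher members and 16 or 17 past 2-fold. Over all tested genes it gave 3584 to 4895 lower and 3586 to 4647 higher. With the replicate number as a block, 22 members were lower, 3 higher and 17 past 2-fold, and the block alone changed no member's call. Deviations of same-numbered libraries had correlations of 0.03, -0.07 and 0.02, within the range of differently numbered libraries (-0.07 to 0.06). No pairing by number was seen, though with 3 libraries per group a weak one could be missed. With the length and GC offset 7 members were higher, and 6 with the replicate block too; in both, 11 members were past 2-fold (10 lower, 1 higher). The sign turned with a call in 4 members, with the offset alone and with the offset and block: CENPM (-0.64 and -0.64), CENPN (0.31 and 0.31), MAD2L1 (0.52 and 0.49) and AURKB (-0.38 and -0.38); the cause was not tested. SGO2 lost its call with both (-0.49; edgeR adjusted p = 0.051, and 6.74e-12 to 0.051 over all alternatives). In 12 members a value that passed in neither fit changed sign. With library totals only, the median of all tested genes was -0.18 and of the members -0.49. Depth limits CENPV, SKA1, CENPC and SPC25, with fewer than 80 reads in some or all libraries.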
